A study of Mus musculus with 6 samples.

Results

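Monocytes and antigen-presenting cells of the periosteum were taken as the nuclei that carried marker RNA of these cells and little RNA of tissue macrophages, injury macrophages or neutrophils. The rule asked for at least 2 UMIs (unique molecular identifiers, each counting 1 captured RNA molecule) summed over Ccr2, Gpr141, Sirpb1c and Cd74 and at least 1 over the leukocyte genes Ptprc and Dock2. It also asked for fewer than 4 over Mrc1, Hpgds, Fcrls and F13a1, fewer than 4 over Arg1, Hmox1, Gpnmb, Msr1 and Clec4d, and fewer than 3 over Csf3r, Cxcr2, S100a8 and S100a9. It found 206 of the 8073 nuclei kept across 6 libraries, which was 8.79% of the 2343 nuclei positive for Ptprc or Dock2. These gate genes chose the members, so their values are given as a description and without a test.

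The libraries were single-nucleus RNA-seq (10x Genomics, 3′ chemistry) of periosteum from the tibia of mice labelled C57BL6 (C57BL/6ScNj in the study's methods), 2 without injury, 2 from day 3 after fracture, and 1 each from days 5 and 7. Each library pooled tibias of several mice, and after fracture the scraped periosteum included the hematoma. For uninjured tibias the marrow had been flushed out. Because the mice of a library were pooled, replicates are libraries, and p-values measure the spread between libraries.

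Classical monocytes enter injured tissue from blood through the chemokine receptor Ccr2 and can become macrophages, dendritic cells or osteoclast precursors there. Dendritic cells present antigen to T cells on MHC class II molecules, heterodimers of alpha and beta chains that are escorted by the invariant chain Cd74 and switched on by the coactivator Ciita. Conventional type 1 dendritic cells (cDC1) are known for Clec9a and cross-presentation, and conventional type 2 dendritic cells (cDC2) for Cd209a and presentation to helper T cells. B cells also hold class II molecules and Cd74. Gpr141 encodes an orphan G protein-coupled receptor, and Sirpb1c a signal-regulatory protein of myeloid cells.

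Promoters of class II genes share a short CCAAT-containing element, the Y box, which the factor NF-Y binds and on which Ciita depends. Stretches of 130 bases ending just before the RefSeq transcription start (GRCm38.p6) are shown for 3 class II genes that were measured in the members, to show where the core of that element lies. The capitals mark TGATTGG, searched on both strands. H2-Aa (alpha chain), minus strand, chr17:34287824-34287953, and H2-Eb1 (beta chain), plus strand, chr17:34305737-34305866, come first. H2-DMb1 (peptide-loading chaperone), plus strand, chr17:34153061-34153190, follows.
H2-Aa: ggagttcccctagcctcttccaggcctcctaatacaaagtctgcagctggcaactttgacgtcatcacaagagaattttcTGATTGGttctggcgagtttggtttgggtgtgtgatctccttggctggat
H2-Eb1: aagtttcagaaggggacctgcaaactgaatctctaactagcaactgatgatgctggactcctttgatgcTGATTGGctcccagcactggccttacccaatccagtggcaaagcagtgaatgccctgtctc
H2-DMb1: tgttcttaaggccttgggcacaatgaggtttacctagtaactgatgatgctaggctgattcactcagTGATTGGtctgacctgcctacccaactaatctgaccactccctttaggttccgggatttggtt

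The match began 50 bases before the start in H2-Aa, 61 in H2-Eb1 and 63 in H2-DMb1. Of the 9 alpha, beta and chaperone genes of class II searched, 8 were matched in the table by symbol, and 7 of these held TGATTGG in this window. H2-DMa held none at either of its starts, and H2-Ab1 had no entry. The same letters occurred in 5.33% of all 32817 promoter windows of this length. A match describes letters and not binding.

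Depth limited what could be compared. The kept nuclei of a library had a median of 1280 to 4214 UMIs, and the members of a library held in sum 943 UMIs in uninjured replicate 1, 16398 in uninjured replicate 2, 22177 and 550771 in day 3 replicates 1 and 2, 170514 at day 5 and 1251 at day 7. Together, day 3 replicate 2 and day 5 held 186 of the 206 members. No member shared its barcode with another library. Scrublet marked 6 members as doublets, all at day 5. It marked 0.174% of the kept nuclei of day 3 replicate 2 and between 0.155% and 3.59% in the other libraries, so doublets were not dependably removed and none were left out. Levels are given as CPM, the UMIs of a gene per 1000000 summed UMIs of the nuclei concerned. Intervals are 95% and exact (binomial for shares, Poisson for CPM), and they cover counting error only.

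The first question was how many such nuclei the periosteum held at each time. They were rare without injury, with 1 of 644 kept nuclei in replicate 1 (0.155%, interval 0.00393 to 0.862%) and 4 of 1182 in replicate 2 (0.338%, 0.0923 to 0.864%). At day 3 there were 13 of 753 in replicate 1 (1.73%, 0.922 to 2.93%) and 119 of 1720 in replicate 2 (6.92%, 5.76 to 8.22%). Both day 3 libraries lay above both uninjured libraries, with means of 4.32% ± 3.67 (SD, n = 2) and 0.247% ± 0.129 (SD, n = 2). The difference of 4.08 percentage points had p = 0.33 in a two-sided exact permutation test, the smallest p that 2 against 2 libraries allow. Day 5 held 67 of 2423 (2.77%, 2.15 to 3.5%), and day 7 held 2 of 1351 (0.148%, 0.0179 to 0.534%), within the range of the uninjured intervals. Without day 3 replicate 2 the difference was 1.48 points, and without replicate 1 it was 6.67. With each nucleus thinned to 1000 UMIs the groups overlapped, at 0% and 0.72% without injury and 0.681% and 6.42% at day 3. Thinning also left out nuclei under 1000 UMIs and made the upper limits of the rule easier to meet. Uninjured replicate 2 then had 7 members among 972 nuclei. The part of depth alone was not tested.

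**Figure D1:**
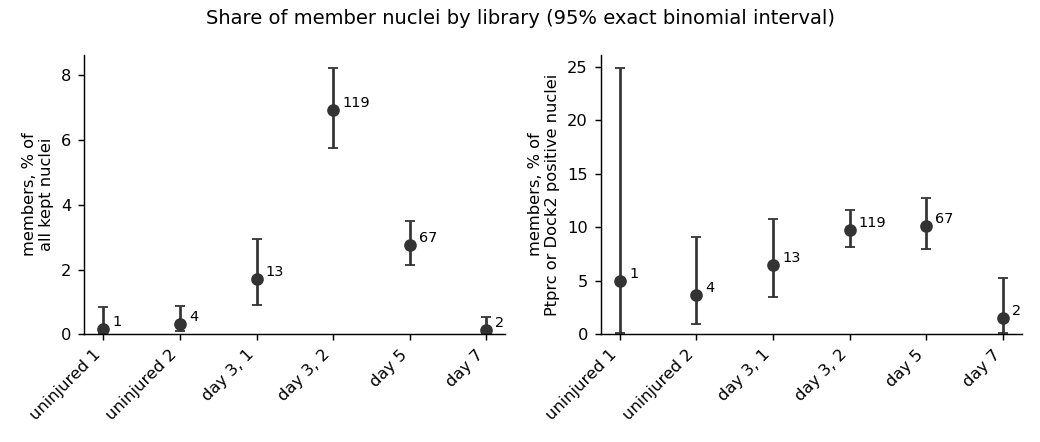
Member nuclei as a percentage of all kept nuclei (left) and of nuclei positive for Ptprc or Dock2 (right) in each of the 6 libraries, with exact binomial 95% intervals and the number of members beside each point. On the left the day 3 libraries stand at 1.73% and 6.92% and the uninjured libraries at 0.155% and 0.338%, whereas on the right all intervals but that of day 7 reach over 5.29%.

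As a share of leukocytes the libraries lay closer together. Of Ptprc- or Dock2-positive nuclei, members were 5% and 3.67% without injury. The day 3 replicates had 6.47% and 9.76%, day 5 had 10.2% and day 7 had 1.49%. The day 3 mean exceeded the uninjured mean by 3.78 points, again with an exact permutation p of 0.33, and the interval of uninjured replicate 1 (0.127 to 24.9%) covered every other library. Thinned to 1000 UMIs, the difference was 1.51 points, and uninjured replicate 2 (11.5%) lay above both day 3 libraries (3.29% and 11.2%). Nuclei with at least 1 UMI of Ptprc or Dock2, called leukocytes here, were 3.11% and 9.22% of kept nuclei without injury and 26.7% and 70.9% at day 3. This limit can also take in nuclei of other types that carry leukocyte RNA. In day 3 replicate 2, 9 members with muscle RNA met it with 9 Ptprc and 2 Dock2 UMIs in sum. A further 502 leukocyte nuclei carried at least 2 marker UMIs but met a macrophage or neutrophil limit, 424 of them in day 3 replicate 2. Just inside the marker limit lay 76 members with exactly 2 marker UMIs, and just outside it 154 leukocyte nuclei with 1. The median member had 3 marker UMIs and the highest 113.

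The markers arrived in different combinations. Of the 206 members, 84 were chosen by the 3 receptor genes alone, 71 by Cd74 alone, 32 by both, and 19 by 1 UMI of each kind. All 13 members of day 3 replicate 1 came through the receptors, and they held no Cd74 UMI, which allows up to 135 CPM by the limit of 3 counts over the library's members. In day 3 replicate 2, 82 of 119 members held Cd74, with 597 UMIs or 1084 CPM in sum. The Cd74 level in uninjured replicates 1 and 2, day 5 and day 7 was 2121, 1586, 880 and 799 CPM, from 2, 26, 150 and 1 UMIs. The day 3 replicates thus differed in Cd74, and likewise in H2-Aa, H2-Ab1 and H2-Eb1, which had no UMI in replicate 1 and 808, 548 and 670 CPM in replicate 2.

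Nuclei of other types also carried marker RNA in day 3 replicate 2. There, 14.1% of stromal nuclei and 13.5% of endothelial nuclei carried a Cd74 UMI, at median depths of 4656 and 7033 UMIs, against 68.9% of members at 3838. For Ccr2 the shares were 11.7% and 16.2% against 58%. In the other libraries at most 2.33% of stromal or endothelial nuclei held either RNA. Whether this was free RNA or doublets, and its part in the members of replicate 2, was not tested.

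**Figure D2:**
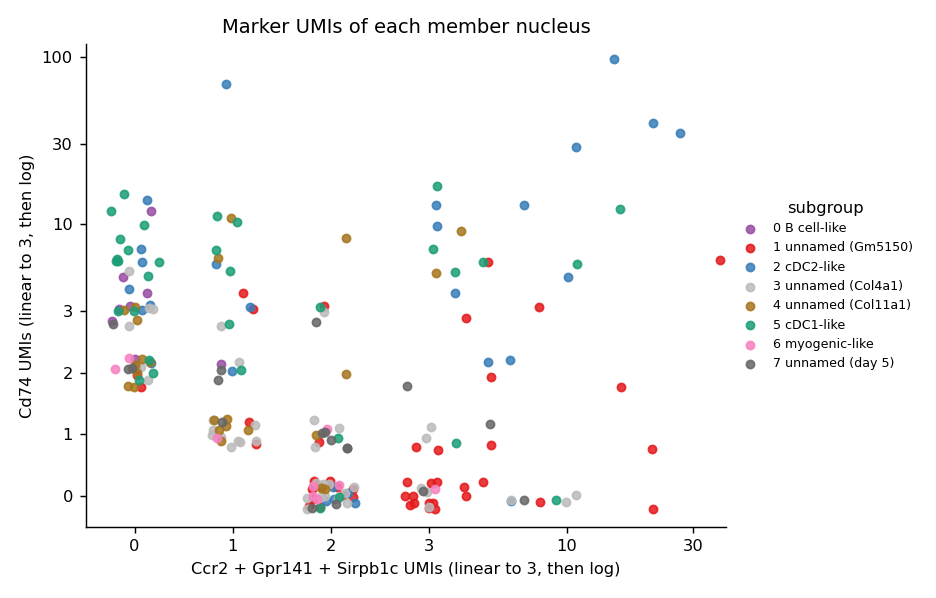
Each point is 1 of the 206 member nuclei, placed by its UMIs of Ccr2, Gpr141 and Sirpb1c (x axis) and of Cd74 (y axis), both linear to 3 and logarithmic above, with a small random shift, and coloured by subgroup. Most points lie along the axes, since 84 nuclei entered by the receptors and 71 by Cd74 alone. Of the 32 nuclei with at least 2 UMIs on both axes, 11 are cDC2-like, 7 are of the Gm5150 subgroup and 7 are cDC1-like.

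Class II genes, which the rule did not use apart from Cd74, followed the Cd74 nuclei. In the 71 nuclei chosen by Cd74 alone, H2-Aa stood at 833 CPM (728 to 948), and in the 84 chosen by receptors alone at 76.7 CPM (45.5 to 121). In the 32 nuclei chosen by both it reached 1577 CPM (1393 to 1779). Tgfbi, a matrix protein that monocytes secrete, ran the other way between the single-marker sets, with 200 CPM (151 to 260) against 1087 CPM (958 to 1229). These values describe nuclei that the rule itself sorted by Cd74.

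To see which cells the gate had gathered, the members were clustered without the gate genes, and clusters were named from marker lists. This gave 8 subgroups. A cDC2-like subgroup, a cDC1-like subgroup and an unnamed one called here by its leading gene Gm5150 held 106 nuclei, 51.5% of the members. A B cell-like subgroup held 9 nuclei. The other 91 nuclei, 44.2%, lay in a myogenic-like subgroup and in 3 further unnamed ones, 1 of them led by matrix genes of stromal cells. These 3 also carried the classical monocyte list, gate genes included, at 2569 CPM (Col4a1 subgroup), 2359 (Col11a1 subgroup) and 2057 (day 5 subgroup). The Gm5150 nuclei held it at 4580 CPM and the cDC2-like nuclei at 1797. The list includes Fn1 and Vcan, which stromal nuclei also held, at 1654 and 450 CPM at day 5. The 3 receptor genes of the gate, which chose the nuclei, are on this list, so its sums are not independent of the gate. They gave 25 of the 412 list UMIs in the Col11a1 subgroup, 83 of 229 in the Col4a1 and 37 of 56 in the day 5 subgroup. In the Gm5150 nuclei they gave 213 of 499 and in the cDC2-like nuclei 132 of 193. How much of these sums was stromal RNA was not tested. No subgroup met the naming rule for monocytes, which the Gm5150 subgroup missed through 1 gate gene, Msr1. The gate held B cells, which also present antigen, and nuclei with stromal or muscle RNA beside dendritic cells. The names depended on the clustering. No cluster was named cDC1-like at resolution 0.5 or 1.5 or with gate genes kept, and none cDC2-like at 1.5. Cluster values are a description, since the same genes formed the clusters.

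**Figure D3:**
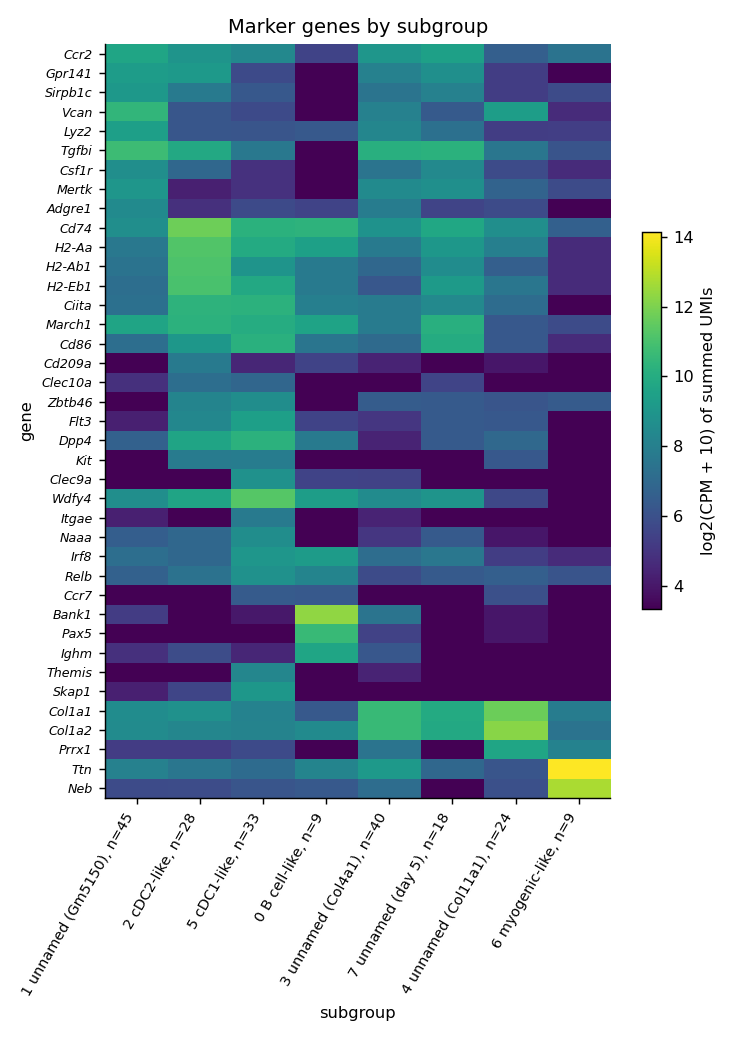
Marker genes (rows) in the 8 subgroups (columns, with their number of nuclei), as log2 of the CPM of summed UMIs plus 10. The cDC2-like column is brightest for Cd74 and the class II genes, the B cell-like column for Bank1 and Pax5, the unnamed Col11a1 column for Col1a1 and Col1a2, and the myogenic-like column for Ttn and Neb.

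The Gm5150 subgroup (45 nuclei, median 1949 UMIs) was closest to the classical monocyte list. Its 10 leading genes held 1 marker of that list, Lyz2, and 1 of the injury macrophage list, the gate gene Msr1, so it was left unnamed. Gate genes counted as markers of other classes but not of the closest class. With Msr1 left out of that count, the rule would have named it classical monocyte-like. The macrophage genes Apoe and Ms4a7 were also among the 10 but on no list used for naming. The subgroup came from 5 libraries, with 2 nuclei from uninjured replicate 2, 12 and 17 from day 3 replicates 1 and 2, 13 from day 5 and 1 from day 7. It was led by Gm5150, a gene near Sirpb1c on chromosome 3, at 633 CPM (493 to 801) against 59.7 in the other members, and by Pla2g7, a phospholipase that inactivates platelet-activating factor, at 330 CPM (231 to 457). The third was Msr1, a scavenger receptor and gate gene. Lyz2, the lysozyme of myeloid cells, stood at 670 CPM (525 to 842) in 19 nuclei. Zeb2, a transcription factor of monocyte differentiation, was found in 42 of the 45 nuclei at 8398 CPM (7862 to 8960).

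Among the classical monocyte markers that are independent of the gate, support was uneven. Vcan, a proteoglycan of monocytes, had 151 UMIs in the subgroup, of which 129 came from a single nucleus. The level was 1386 CPM with that nucleus and 218 CPM without it. Ly6c2, which defines classical monocytes in mice, had 4 UMIs in 2 nuclei, and Chil3 12 UMIs in 8 nuclei. Tgfbi was spread more evenly, over 34 nuclei at 1707 CPM (1471 to 1971).

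Tissue macrophage genes were found in the same nuclei although the gate limited other macrophage RNA. At least 2 UMIs of the 15 genes of the macrophage list were held by 36 of the 45. That list includes the gate genes Mrc1, F13a1, Hpgds and Fcrls, and a count without them is not given. Mertk, a receptor for the uptake of dead cells, was found in 22 of the 45 nuclei at 496 CPM (372 to 647), and Adgre1, which encodes F4/80, in 23 at 349 CPM (247 to 479). Apoe, the lipid carrier of macrophages, stood at 1322 CPM (1115 to 1556), with 130 of its 144 UMIs from day 3 replicate 2. Csf1r, the receptor of macrophage colony-stimulating factor, was found in 22 nuclei at 395 CPM (286 to 532), above 112 (57.7 to 195) in the cDC2-like and 18.8 (3.88 to 55) in the cDC1-like nuclei.

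Osteoclast precursor genes were present at the level of receptors and regulators. Tnfrsf11a, which encodes RANK, the receptor through which osteoclasts form, stood at 642 CPM (501 to 812) in the Gm5150 nuclei. It stood at 270 CPM (181 to 388) in the cDC2-like and 276 (201 to 371) in the cDC1-like nuclei. Of its 70 UMIs in the Gm5150 nuclei, 25 lay in 1 nucleus, without which the level was 454 CPM, and 50 came from day 3 replicate 2. Mitf, a regulator of osteoclast genes, stood at 661, 447 and 100 CPM in the same order. Genes of mature osteoclasts were near absent there, with 2 UMIs of Acp5 and none of Ctsk or Dcstamp in the Gm5150 nuclei.

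Within the Gm5150 subgroup the 2 day 3 libraries differed in some of these genes. At resolution 1.5 the classical monocyte-like cluster (32 nuclei) held no nucleus of day 3 replicate 1, and 11 of its 13 members lay in an unnamed cluster closest to macrophages, so the nuclei compared here need not be alike. Tgfbi stood at 3841 CPM (3036 to 4793) in the 12 nuclei of replicate 1 and 1200 CPM (940 to 1508) in the 17 of replicate 2. Ccr2, a gate gene, ran from 295 CPM (108 to 643) to 970 CPM (738 to 1251). At day 5, 13 such nuclei held Tgfbi at 991 CPM (605 to 1530) and Il1b, a pro-inflammatory cytokine, at 694 CPM (379 to 1164). In day 3 replicate 2 Il1b stood at 362 CPM (227 to 547). In the members of day 3 replicate 1, 12.8% of all UMIs belonged to Gm42418, a noncoding gene that overlaps ribosomal RNA sequence, against 0.735% in replicate 2. Its part in the differences was not tested.

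The cDC2-like subgroup (28 nuclei, median 2017 UMIs) held 18 nuclei of day 3 replicate 2, 8 of day 5, and 1 each of uninjured replicate 2 and day 7. Cd209a, a lectin of cDC2 and of dendritic cells that arise from monocytes, led it at 205 CPM (128 to 310) in 8 nuclei, against 7.64 in the other members. It was followed by H2-Ab1 at 2206 CPM (1934 to 2506) and by Ifitm1, an interferon-induced membrane protein, at 363 CPM (258 to 496). Other cDC2 markers were uneven, with 1 UMI each of Irf4 and Mgl2. Dpp4 had 83 UMIs in 16 nuclei (773 CPM) and Flt3 33 UMIs in 15 (307 CPM), both below their levels in the cDC1-like nuclei. Kit was found in 11 nuclei, Zbtb46, a transcription factor of conventional dendritic cells, in 11 and Clec10a in 8. Kit is also on the mast cell list, of which 3 genes had 73 UMIs here, 23 of them Kit. This list stood at 680 CPM (533 to 855), and 5 nuclei held at least 2 of its UMIs. The receptor genes of the gate were also present, with Ccr2 in 12 and Gpr141 in 15 of the 28 nuclei.

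The class II chains H2-Aa, H2-Ab1 and H2-Eb1 were at their highest level in these nuclei. H2-Aa stood at 2337 CPM (2057 to 2644), H2-Eb1 at 2095 CPM (1830 to 2387) and Cd74 at 3445 CPM (3103 to 3814). Single nuclei weighed on these sums, since the highest of the 28 gave 21.5% of the H2-Aa and 26.5% of the Cd74 UMIs, and without it H2-Aa stood at 1977 CPM. Ciita was found in 19 nuclei at 1257 CPM (1054 to 1488), and March1, the ubiquitin ligase that removes class II from the surface, in 20 at 1220 CPM (1020 to 1448). In the cDC1-like nuclei H2-Aa stood at 973 CPM and Ciita at 1218 CPM (1053 to 1402), close to the cDC2-like level. In the 45 Gm5150 nuclei H2-Aa stood at 193 CPM and Ciita at 147 CPM. Ctss, the protease that trims the invariant chain, did not separate these groups, at 1065 CPM (880 to 1277) in the Gm5150 and 1024 CPM (842 to 1234) in the cDC2-like nuclei.

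**Figure D4:**
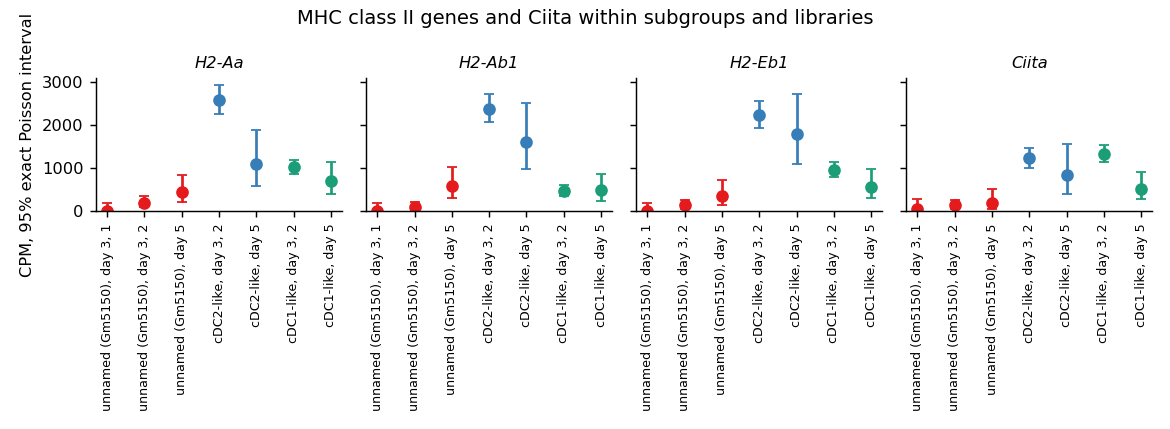
CPM of H2-Aa, H2-Ab1, H2-Eb1 and Ciita in the Gm5150, cDC2-like and cDC1-like nuclei of each library with at least 5 such nuclei, with exact Poisson 95% intervals. H2-Aa in the cDC2-like nuclei stands at 2593 CPM at day 3 replicate 2 and 1109 at day 5, and the Gm5150 nuclei lie at or below 594 CPM for all 4 genes.

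For H2-Aa the order of the subgroups was the same in both libraries that held them. At day 3 replicate 2, H2-Aa stood at 2593 CPM (2273 to 2946) in the 18 cDC2-like, 1019 (857 to 1203) in the 26 cDC1-like and 197 (102 to 344) in the 17 Gm5150 nuclei. At day 5 it stood at 1109 CPM (591 to 1897), 700 (400 to 1136) and 446 (204 to 846), where neighbouring intervals overlapped. The order did not hold for H2-Ab1 and Ciita. At day 5 H2-Ab1 stood at 481 CPM (240 to 861) in the cDC1-like nuclei, below the Gm5150 level, and at day 3 replicate 2 Ciita stood at 1334 CPM in the cDC1-like and 1231 in the cDC2-like nuclei, against 525 and 853 at day 5. In the Gm5150 nuclei H2-Ab1 ran from 98.6 CPM (36.2 to 215) at day 3 replicate 2 to 594 CPM (307 to 1038) at day 5, from 6 and 12 UMIs. Day 5 has 1 library, so no test of this difference was made.

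The cDC1-like subgroup (33 nuclei, median 4895 UMIs) held 26 nuclei of day 3 replicate 2 and 7 of day 5, and none of the 20 members of the other libraries. Its leading genes were Adam23, an adhesion protein of the disintegrin family, at 1739 CPM (1540 to 1957) against 34.8 in the other members, Cd226, an activating receptor, at 245 CPM (174 to 335), and Itgae, the integrin alpha chain CD103, at 201 CPM (137 to 284). Wdfy4, which cross-presentation by cDC1 needs, was found in 21 nuclei at 2474 CPM (2236 to 2731) against 325 in the other members. Clec9a was found in 7 nuclei at 433 CPM (337 to 548), Naaa in 10, Irf8 in 9 and Xcr1 in 2. Flt3, the growth factor receptor of dendritic cells, stood at 684 CPM (562 to 826) and Dpp4 at 1231 CPM (1064 to 1416), in 21 and 27 nuclei.

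These nuclei did not form 1 clear type. At least 2 UMIs of the cDC1 list were found in 21 of the 33, of the cDC2 list in 28, and of the mature dendritic cell list in 13, and all 21 with the cDC1 list also had the cDC2 list. In sum the cDC2 list stood at 2750 CPM (2499 to 3020) here, above its 2123 CPM (1856 to 2417) in the cDC2-like nuclei. Relb, an NF-kB subunit of mature dendritic cells, stood at 433 CPM (337 to 548), Il4i1, an amino acid oxidase, at 195 CPM (132 to 276), and Ccr7, which guides dendritic cells to lymph nodes, had 12 UMIs in 3 nuclei. T cell genes were also present, with 48 UMIs of Themis and 81 of Skap1. A limit of the cDC1 list is that 23 of the 45 Gm5150 nuclei also reached 2 of its UMIs. The T cell UMIs came from few nuclei, since 44 of the Themis UMIs lay in 1 nucleus and Skap1 was found in 4.

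Cd86, the ligand of CD28, stood at 1149 CPM (989 to 1328) in the cDC1-like, 512 (386 to 666) in the cDC2-like and 138 (77.1 to 227) in the Gm5150 nuclei. Icosl and Tnfsf4, ligands of the T cell receptors ICOS and OX40, were at 213 and 182 CPM in the cDC1-like and 186 and 130 in the cDC2-like nuclei, and at 18.4 CPM and no UMI in the Gm5150 nuclei. Havcr2 and Vsir, which encode the inhibitory receptors TIM-3 and VISTA, ran the other way, at 330 and 266 CPM in the Gm5150 and 18.8 and 25.1 in the cDC1-like nuclei. In day 5 cDC1-like nuclei Cd86 stood at 2580 CPM (1964 to 3328), against 909 (756 to 1084) at day 3 replicate 2.

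Lineage factors divided along the same line. Zeb2 stood at 8398 CPM in the Gm5150, 3733 (3377 to 4117) in the cDC2-like and 1695 (1499 to 1910) in the cDC1-like nuclei. Ikzf1, Nfkb1, Bcl11a and Id2 ran in the opposite order. Ikzf1, a regulator of lymphoid and dendritic cells, stood at 477, 1769 and 2129 CPM, and Nfkb1 at 312, 912 and 1595 CPM. Bcl11a, a factor of B cells and dendritic cells, had 1 UMI in the Gm5150 nuclei and 847 and 980 CPM in the others. Spi1, which encodes the myeloid master factor PU.1, was at 450 (333 to 595), 391 (282 to 529) and 201 (137 to 284) CPM, with overlapping intervals for the first pair.

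Cytokine genes were sparse. Of the 19 listed, 17 had a UMI and 6 had at least 10 UMIs over all members. Il1b had 47 UMIs in 15 Gm5150 nuclei, while Tnf had 1 UMI there and Il12b none in any of these 3 subgroups. Of 20 chemokine genes, 6 reached 10 UMIs, among them Cxcl16, at 110, 93.1 and 113 CPM in the Gm5150, cDC2-like and cDC1-like nuclei, and Ccl6, with 17 UMIs in 5 Gm5150 nuclei. Of 41 interferon response genes, 32 reached 10 UMIs. Trim30a was at 395 (286 to 532), 624 (483 to 792) and 684 (562 to 826) CPM, and Rnf213 at 560, 559 and 578 CPM.

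The B cell-like subgroup had 9 nuclei that all entered through Cd74. They were the single member of uninjured replicate 1, 1 of the 4 members of uninjured replicate 2, 4 of day 3 replicate 2 and 3 of day 5. Bank1, a scaffold of B cell receptor signalling, was found in 8 nuclei at 5141 CPM (4343 to 6042) against 27.3 in the other members. Pax5, the factor that fixes B cell identity, was found in 7 at 1539 CPM (1118 to 2066), and Ikzf3 in 8.

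Of the remaining subgroups, 3 carried RNA of stroma or muscle. The unnamed Col11a1 subgroup (24 nuclei, 11 of day 3 replicate 2 and 13 of day 5, median 6947 UMIs) held Col11a1, a fibrillar collagen, at 2411 CPM, Brinp3 at 475 CPM and Gpc6, a glypican, at 2634 CPM. In it Col1a2 was found in all 24 nuclei, and Scrublet marked 5. The myogenic-like subgroup (9 nuclei, all of day 3 replicate 2) was led by Mybpc1, 5730419F03Rik and Dmd, with Mybpc1, a myosin-binding protein, at 4549 CPM and Ttn at 17836 CPM. The unnamed Col4a1 subgroup (40 nuclei, 34 of day 3 replicate 2) had a median of 1260 UMIs, and its nuclei had a median of 0.319 of the median depth of their own library. It was led by Col4a1, Gm14005 and Abcg3, and 33 of its nuclei held Col1a1, while Lst1, Spp1, Ctsl and Csf3r were also among its 10 leading genes. The last unnamed subgroup (18 nuclei, all of day 5) resembled no listed class. It had Adnp and Cpne1 among its leading genes, with 8 and 6 UMIs, and held Cd86 at 992 CPM (654 to 1443) and March1 at 1102 CPM (744 to 1573), against 384 and 593 in the other members.

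Summed stromal markers (6 genes) ran from 823 to 1028 CPM in the Gm5150, cDC2-like, cDC1-like, B cell-like and myogenic-like nuclei. They stood at 2351 CPM in the unnamed day 5 subgroup, 4678 in the Col4a1 and 13880 in the Col11a1 nuclei. By library they made up 4555 and 4768 CPM of the members at day 3 replicate 2 and day 5, and 135 CPM at day 3 replicate 1. Leaving out members with at least 4 UMIs of stromal and chondrocyte markers or of myogenic markers, a choice made after the data were seen, lowered the day 3 excess among kept nuclei from 4.08 to 1.62 points.

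**Figure D5:**
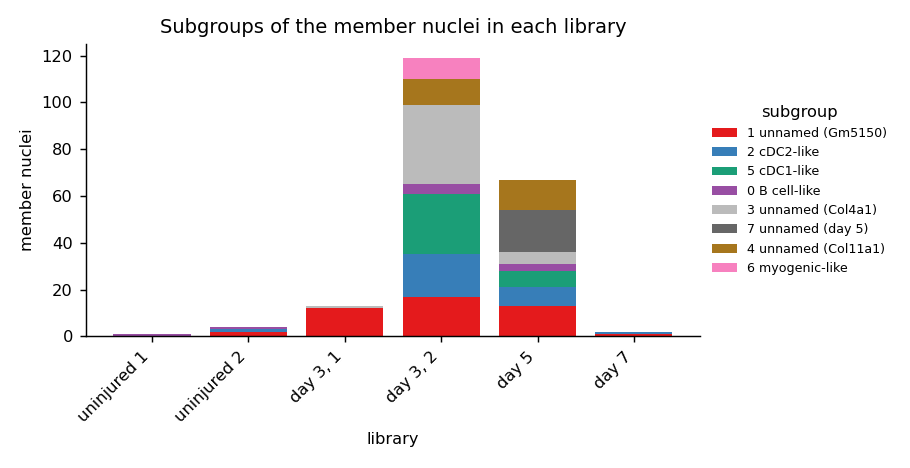
Number of member nuclei of each subgroup in each library, as stacked bars. Day 3 replicate 2 (119 nuclei) and day 5 (67) hold nearly all of the Col4a1, Col11a1, day 5 and myogenic-like nuclei, and 12 of the 13 nuclei of day 3 replicate 1 are in the Gm5150 subgroup.

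The Gm5150, cDC2-like and cDC1-like nuclei alone made up 0% (0 of 644, with an upper bound of 0.571%), 0.254%, 1.59%, 3.55%, 1.16% and 0.148% of the kept nuclei in uninjured replicates 1 and 2, day 3 replicates 1 and 2, day 5 and day 7. The order of the libraries was close to that of the whole gate, and the day 3 libraries again lay above the uninjured ones.

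Genes of the members were then compared between day 3 and uninjured with edgeR's quasi-likelihood test on the UMIs summed per library. Only 259 genes other than gate genes passed the filter on low counts, because the uninjured libraries offered 943 and 16398 UMIs. A single gene was called at an adjusted p under 0.05, a background of 0.386%, and it was lower at day 3. This was Gm43388, a long noncoding RNA gene at chromosome 16, 19212660 to 19236776 on the minus strand (GRCm38), among the segments of the immunoglobulin lambda light chain locus. It had 2121 and 1220 CPM in the uninjured libraries, from 2 and 20 UMIs, and 0 and 12.7 CPM at day 3, from 0 and 7 UMIs. The log2 fold change was -5.83 with SE 0.82 and adjusted p = 0.045 in edgeR. All 22 uninjured UMIs lay in the 2 B cell-like nuclei, and the 7 at day 3 in 1 nucleus of the Col4a1 subgroup. Gm43388 passed the filter on low counts through the uninjured libraries alone. The edgeR call was lost without uninjured replicate 1 (adjusted p = 0.55), day 3 replicate 1 (0.94) or day 3 replicate 2 (0.33), and with no filter on low counts (0.83).

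No listed gene was called by edgeR. DESeq2 called 8 genes, 5 higher and 3 lower at day 3, and the 5 higher are not named here. The 3 lower were Gm43388 and the B cell genes Bank1 (DESeq2 adjusted p = 0.0052) and Ralgps2 (0.01). With days 5 and 7 added, edgeR called both B cell genes (0.044 and 0.023). Of the B cell list, 4 genes were tested, with a median log2 fold change of -3.41 beside 0.47 over all 259 genes, and 3 had an unadjusted p under 0.05. Bank1 and Ralgps2 passed the filter on low counts through the uninjured libraries alone, where they were high. The filter thus favoured a negative median, which is a description and supports no change. In each uninjured library the Bank1 UMIs, 5 and 59, came from 1 B cell-like nucleus. Bank1 had 5302 and 3598 CPM in the uninjured libraries against no UMI and 143 CPM at day 3 (log2 fold change -4.31, SE 1.33, edgeR adjusted p = 0.28), and the groups did not overlap. Of the class II list only Ctss and Ciita were tested and neither was called. None of the 24 listed cytokine receptors, 7 classical monocyte markers outside the gate or 9 cDC2 markers passed the filter. Without the filter 15110 genes were tested and none was called by edgeR, with 429 at an unadjusted p under 0.05. Over all 259 genes 23 had an unadjusted p under 0.05.

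Compared with the other leukocyte nuclei of the same libraries, with libraries weighted equally, some genes were higher in the members. Because the rule sorted these nuclei, the ratios are a description, and libraries of 1, 4 and 2 members weigh as much as the others. Among 3715 genes found in at least 15% of members, Bcl11a had the highest ratio, 34.3, with 1280 CPM in members and 27.6 in the other leukocytes, and was higher in 5 of 6 libraries. Ralgps2, Cd72, a B cell coreceptor, Gm15987 and Htr7, a serotonin receptor, followed at 17.5, 15.3, 14.5 and 13.1. The small libraries carried some of these ratios, since Ralgps2 stood at 4242 and 1951 CPM in the uninjured members, but at 87.2 CPM against 73 in the other leukocytes at day 3 replicate 2 and 70.4 against 51.8 at day 5. The list went on with Stat4, Sirpb1a, Ero1lb, Atp5f1, Syngr2, Bach2, Cyfip2, Rtn1 and B4galnt1 to Ciita at a ratio of 8.1, higher in 4 of 6 libraries. In the deepest library, day 3 replicate 2, Ciita stood at 590 CPM in members, 155 in Mrc1-high macrophages, 109 in Arg1, Hmox1 and Gpnmb macrophages and 34.1 in nuclei of the neutrophil gate.

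Between day 5 and the mean of the day 3 libraries, the largest increases were in Kcnip4, Col9a1, Unc5c, Col2a1 and Col11a1. Kcnip4, a potassium channel subunit, had 121 UMIs in 9 nuclei at day 5 and 2 UMIs at day 3, and Col2a1, the collagen of cartilage, 83 UMIs in 12 nuclei against 1. Of the 75 Col2a1 UMIs in the Col11a1 subgroup all were from day 5. The largest decreases were in Gm48099, Gm19951, Gm15564, Gm42418 and Dmd, of which Dmd had 1028 of its UMIs in the myogenic-like nuclei. The other 4 rested mostly on day 3 replicate 1, where Gm48099 stood at 2255 CPM against 58.1 in replicate 2 and 17.6 at day 5, and Gm42418 at 127835 against 7348 and 2434. At day 7 the 2 members held 1251 UMIs, so that 1 UMI was worth 799 CPM. There the largest increases were Pip4k2a, Malat1 and Gm42418, with 10, 58 and 110 UMIs, and the largest decreases were Lrmda, Ext1, Gab2, Pde4d and Foxp1, each without a UMI. A count of 0 allows 2398 CPM at day 7. Lrmda lay above this in day 3 replicate 1 (5186 CPM) but not in replicate 2 (1224 CPM), so no difference was detectable against replicate 2.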

How the data were processed

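The authors deposited unnormalised UMI counts for 6 libraries, made with Cell Ranger (6.0.0 for uninjured replicate 1, day 5 and day 7, and 7.1.0 for the others) from intronic and exonic reads on mm10. Counts were limited to the 30406 genes shared by all libraries. Kept barcodes had between 200 and 5000 genes, less than 2% of UMIs from mitochondrial genes and less than 1.5% from Rps and Rpl genes. The authors removed myogenic nuclei, and here they stayed. The members and lists were chosen with earlier results of these data known.

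Members were clustered with scanpy (10000 UMIs, 2000 variable genes without gate genes, 20 components, 15 neighbours, Leiden resolution 1). A cluster took the class with the highest mean log2 marker ratio (10 CPM added) if at least 3 markers were found in 10% of nuclei, the ratio was at least 1 and its 10 leading genes held more of its markers than of any other class. Gate genes were left out of the markers of that class but not out of those of other classes among the leading genes. The rules on the ratio and the leading genes were set after seeing the data.

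UMIs summed per library were tested with edgeR (glmQLFit, filterByExpr, TMM, Benjamini-Hochberg), and the step was tested on simulated data. Named genes were the gate genes, the list genes, the 5 largest called changes each way with at least 50 CPM, the 15 highest ratios to other leukocytes, 3 leading genes per subgroup among those in 25% of nuclei, and the 5 largest ratios of days 5 and 7 to day 3 with at least 10 UMIs and 100 CPM. Other genes were named after their values were seen. Versions were edgeR 4.0.16, DESeq2 1.42.0, R 4.3.3, scanpy 1.11.5 and Python 3.11.15. Coordinates follow GENCODE release M21 (GRCm38). Some named items are not reported here.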

Additional observations from a re-analysis of the deposited data

Results flagged for a closer look

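Barcodes that the limits on genes, mitochondrial and ribosomal UMIs removed were not part of any comparison, yet 177 of the 2992 removed in day 3 replicate 2 (5.92%) met every gate, 166 of them beyond the mitochondrial or ribosomal limit and 20 with more than 5000 genes, some of them both. At day 5, 4 of 113 removed barcodes did so. None did in the 11 and 264 barcodes removed from the uninjured libraries.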

How the results depend on the processing

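With 1 gene called, most choices moved the count of calls. DESeq2 called 8 genes (5 higher, 3 lower, with 30 adjusted p-values not given), and days 5 and 7 added to day 3 gave 3. No gene was called by edgeR without the filter on low counts (0, with 429 at an unadjusted p under 0.05), with 3 marker UMIs (0, 16), without Cd74 in the gate (0, 44), or, chosen after seeing the data, without lymphoid and mast cell nuclei by a narrower list (0, 50) or without stromal and myogenic nuclei (0, 10). Leaving out 1 library gave 0 to 1. With 3 marker UMIs, without Cd74 and with the narrower list, uninjured replicate 1 had no member, and the other uninjured library was assumed to vary like the rest. The planned full lymphoid and mast cell list left no uninjured member and was not run for genes. Gm43388 stayed lower wherever it was tested, between -6.74 and -5.37 on the log2 scale.

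The excess of the day 3 mean stayed positive under all alternatives, from 1.48 to 6.67 points of kept nuclei and from 1.51 to 6.62 of leukocytes. Single libraries did not always separate. Beside the thinned setting, shares of leukocytes overlapped with 3 marker UMIs, at 0% and 3.67% without injury against 2.49% and 6.07% at day 3. They also overlapped without stromal and myogenic nuclei, at 5% and 0.917% against 6.47% and 2.46%. Leaving out 1 library gave 1.48 to 6.67 and 2.13 to 5.43. The narrower lymphoid list, chosen after seeing the data, gave 6.62 points of leukocytes. The planned full lymphoid and mast cell list left 99 members and none without injury. It gave 1.98 points of kept nuclei and 4.5 of leukocytes, with day 3 replicates 1 and 2 at 5.47% and 3.53% of leukocytes. Resolution 0.5 gave 5 subgroups, 1.5 gave 10 and keeping gate genes gave 7, beside 8. B cell-like and myogenic-like clusters were named under all 3, cDC1-like under none, and cDC2-like under 2, led by Adam23. A classical monocyte-like cluster was named at 1.5 and with gate genes kept. No paired analysis was possible because the labels give no shared replicate numbers. With 5 uninjured members, depth decides what can be tested.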
